A study of Mus musculus with 50 samples.

Results

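The cells carrying both a mutant p53 and an activated Ras (mp53/Ras) were set against all 4 other populations of one mouse colon cell series at the same time. A gene was taken as a member when its 10 mp53/Ras arrays lay all above, or all below, the 40 other arrays. Of 12883 genes tested, 224 met that rule (1.74%), 35 with the mp53/Ras arrays above (0.272%) and 189 with them below (1.47%). The separation is a description of these arrays and carries no test of its own. Before genes with dim signal were removed, 257 of 18193 gene symbols met the rule, 54 above and 203 below, so 19 of the first kind and 14 of the second were dim and are not described.

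YAMC, a line of epithelial cells from young adult mouse colon, comes from the Immorto-mouse (H-2Kb/tsA58), whose temperature-sensitive large T antigen is driven by a promoter that answers to interferon γ. Infection of low-passage YAMC cells with retroviruses gave the polyclonal populations bleo/Neo (both empty vectors), mp53 (mutant p53 with the Neo vector), Ras (activated Ras with the Bleo vector) and mp53/Ras (both oncogenes), and the uninfected YAMC cells were the fifth group. Cells of every group were expanded at 33 °C with 5 U/ml interferon γ, then kept at 39 °C without it for 48 h and for 24 h more in 0% serum, and were still cycling and sub-confluent at harvest. Polysomal RNA, the messenger RNA carrying several ribosomes, was collected from sucrose gradients and 5 µg per sample was hybridised to 1 Affymetrix mouse genome array, with 10 arrays in each of 5 groups. Each population exists once, so that genotype and the history of that population cannot be told apart, and the 4 infected populations carry retroviral vectors that YAMC cells lack.

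The tumour suppressor p53 is a transcription factor that switches on genes for cell cycle arrest, DNA repair and cell death, and many mutant forms lose that activity while blocking the normal protein. Ras passes growth factor signals to the kinases RAF, MEK and ERK, which induce early growth genes together with their own feedback inhibitors. Cells that receive activated Ras alone often arrest or die through p53, and loss of p53 function is known to let Ras-driven growth proceed.

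Levels are log2 intensities, and a signal from polysomal RNA depends on the amount of a transcript and on its ribosome loading together. In such bulk samples a change in the share of some cells and a change in RNA per cell also cannot be told apart. Differences are mp53/Ras minus the unweighted mean of the 4 other group means, each followed after ± by its standard error in limma, with n = 10 arrays in every group. Arrays give no read depth, so their number limits the precision. The labels number the replicates without saying whether they were separate cultures, and p-values therefore measure only the spread between these samples.

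The profile of mp53/Ras cells lay nearest to that of Ras cells, with a root mean square difference over all tested genes of 0.268, against 0.447 for mp53, 0.538 for YAMC and 0.594 for bleo/Neo. The arrays labelled Ras 10 and mp53 10 were each nearer the other's group mean, as were the arrays labelled YAMC 2 and mp53 8. Without these 4 arrays 43 genes lay above and 210 below, and 35 of the 35 and 188 of the 189 members were among them. Krt8, Krt18 and Epcam, which mark simple epithelium, were measured well in all groups, with mp53/Ras means of 12.94, 12.67 and 8.41. Of 23 colon epithelial markers 14 passed the filter on dim genes, among them Klf4 and Klf5 (11.86 and 10.45 in mp53/Ras), Krt19 (9.78) and, nearer the filter level, Tff3 (7.36), Muc13 (7.14) and Muc2 (6.49). Cdx1 and Cdx2, which specify intestine, and Vil1, Cdh1, Lgals4 and Slc26a3 were among those that did not pass. Of 15 markers of fibroblasts and smooth muscle 11 passed, such as Col1a1 and Acta2 (12.49 and 13.52 in mp53/Ras). Cnn1 passed as well but was at 5.17 in mp53/Ras, and Lum, Pdgfra, Myh11 and Thy1 did not pass. Of 12 immune markers 6 passed, such as Cd14 (8.97) and Cd68 (8.41), and of 11 endothelial markers 5, such as Eng (8.49) and Esam (8.30), while Ptprc, Pecam1 and Cdh5, which define leukocytes and endothelium, did not. The bleo/Neo population had almost no Y-linked signal (Eif2s3y 3.73, against 7.94 to 8.96 in the other groups), and its differences from the rest enter the mean of the 4. The Y gene Kdm5d was at 5.81 in mp53/Ras, 6.78 to 7.40 in YAMC, mp53 and Ras, and 3.63 in bleo/Neo. Uty was at 5.57 in mp53/Ras, 6.37 to 7.32 in YAMC, mp53 and Ras, and 3.58 in bleo/Neo. The cause of these differences was not tested.

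In the fit across all genes, 7059 of 12883 genes (54.8%) differed in mp53/Ras cells from the mean of the others at an adjusted p under 0.05 (limma with Benjamini-Hochberg adjustment), 3518 higher (27.3%) and 3541 lower (27.5%). At least 2-fold differences were fewer, with 144 genes higher (1.12%) and 268 lower (2.08%). Against YAMC alone 29.1% of the genes were called higher and 28.7% lower, against bleo/Neo 26.7% and 27.9%, and against mp53 23.3% and 23.8%. Against Ras, the nearest population, the calls were fewer, 9.12% higher and 12.5% lower. Called in the same direction against each of the 4 were 577 genes higher (4.48%) and 939 lower (7.29%), 4 comparisons that share the mp53/Ras arrays. Both counts are well above the 35 and 189 whose arrays did not overlap, since a called gene can still have arrays inside the range of another group.

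**Figure D1:**
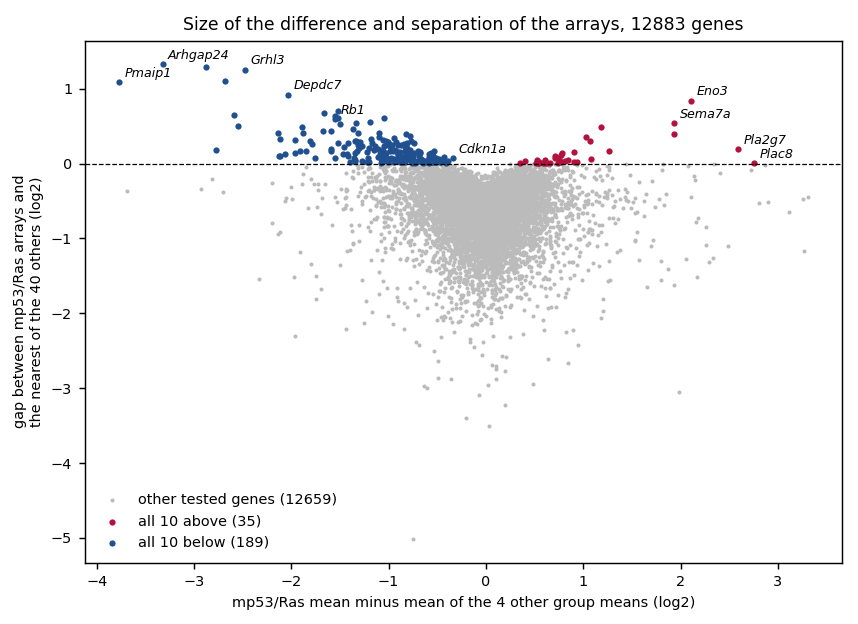
Each point is 1 of the 12883 tested genes. The horizontal axis gives the mp53/Ras mean minus the mean of the 4 other group means (log2), and the vertical axis the distance between the mp53/Ras arrays and the nearest of the 40 others (log2), positive where no array overlaps. The 189 genes below reach larger differences and wider gaps than the 35 above, up to a gap of 1.32 for Arhgap24 against 0.84 for Eno3.

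Members below were more numerous than members above and further from the other arrays. The median difference was 0.77 among the 35 above and -0.99 among the 189 below, and 10 and 92 of them differed at least 2-fold. The median gap to the nearest other array was 0.045 above and 0.134 below. At the edge of the rule, Mrpl50 was just inside with a gap of 0.0023 (mp53/Ras arrays from 9.38, others up to 9.38) and Mycn just outside, its lowest mp53/Ras array and its highest other array both at 13.98. On the lower side Meak7 was just inside with a gap of 0.0027 (mp53/Ras up to 8.69, others from 8.70), and Ppp1r13l just outside with both at 9.27. Of the 35 above, 2 passed the filter on dim genes through their mp53/Ras arrays alone. With these 2 included, 3 had under 10 other arrays above the filter level and so needed their mp53/Ras arrays to pass. Of the 189 below, 29 had no mp53/Ras array above the filter level, where background limits the fall that can be measured. The spread within mp53/Ras was small, with a median standard deviation of 0.134 among members above and 0.143 among members below, beside 0.152 over all tested genes. The rule itself favours genes with a small spread in mp53/Ras. Over all tested genes the median in the other groups was larger, from 0.183 in Ras to 0.224 in YAMC.

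Among the 5 populations the members were ordered more often than other genes. The Ras mean was the nearest to mp53/Ras for 31 of the 35 members above (88.6%) and 116 of the 189 below (61.4%), beside 49.5% of all tested genes. The mp53 mean was the nearest for 2 above (5.71%) and 65 below (34.4%), beside 21.3% of all tested genes. The means of mp53 and of Ras both lay between mp53/Ras and both controls for 20 of 35 members above (57.1%) and 140 of 189 below (74.1%), beside 22.1% of all tested genes. The rule itself favours such orders, since it requires mp53/Ras to be outermost, and no test was made of them. The median difference of the members below was -1.11 from YAMC, -1.20 from bleo/Neo, -0.81 from mp53 and -0.71 from Ras.

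The widest separation above was that of Eno3, the muscle-type enolase of glycolysis. Its 10 mp53/Ras arrays ran from 12.16 to 12.57 (median 12.34). Ras arrays lay from 10.67 to 11.32 (10.99), mp53 arrays from 10.11 to 11.21 (10.80), YAMC arrays from 9.23 to 11.10 (10.01) and bleo/Neo arrays from 8.18 to 9.54 (9.07). The difference was 2.11 ± 0.11, and every mp53/Ras array stood 0.84 or more above the highest of the others. Mean levels were in the order bleo/Neo, YAMC, mp53, Ras and mp53/Ras, with the mp53 and Ras arrays overlapping.

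Plac8, a small cysteine-rich protein first found in placenta, had the largest difference, 2.75 ± 0.18. Its mp53/Ras arrays lay at 11.48 or more (median 11.77), just above the Ras arrays at 9.52 to 11.48 (11.20), while mp53 ran from 8.16 to 10.92 (9.48), YAMC from 8.11 to 10.76 (10.20) and bleo/Neo from 5.15 to 6.14 (5.55). The gap to the highest Ras array was 0.0075, so the separation from Ras was marginal, and the low bleo/Neo level made up much of the average. Against Ras alone Plac8 differed by 0.67.

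Pla2g7, the secreted enzyme that inactivates platelet-activating factor, ranged from 8.02 to 9.21 (median 8.65) in mp53/Ras and from 5.43 to 7.82 (7.22) in Ras, with medians of 5.79, 5.26 and 5.96 in mp53, YAMC and bleo/Neo. Sema7a, a membrane-anchored semaphorin, ranged from 7.29 to 8.58 (7.98) in mp53/Ras and reached at most 6.75 in the other arrays, a Ras array. Its YAMC, bleo/Neo and mp53 arrays reached at most 6.30, under the filter level of 6.44, so Sema7a passed the filter only with its mp53/Ras arrays. Kctd15, a BTB-domain protein that restrains neural crest formation, ranged from 7.56 to 8.37 (7.94) in mp53/Ras and reached at most 7.16 elsewhere. The 3 differences were 2.59, 1.94 and 1.93, and in each gene the Ras median was intermediate and the other 3 groups overlapped one another.

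The next members above by size were the potassium channel gene Kcnk12 (1.26) and the placental homeobox gene Esx1 (1.18). These are the 2 that passed the filter through their mp53/Ras arrays alone: all 40 other arrays were under the filter level of 6.44, so that background bounds the size of the rise. They were followed by the ataxin-like gene Atxn7l1 (1.08 ± 0.09, another bright probe set at 0.58), the matrix protein gene Dpt (1.07 ± 0.07) and Phlda2, an imprinted gene that limits placental growth (1.03 ± 0.06). Esx1 stood at 6.46 to 7.0 in mp53/Ras and at no more than 5.98 in any other array, and Phlda2 at 7.01 to 7.67 against no more than 6.65. In Dpt and Clec11a, a secreted lectin growth factor (0.94), the Ras arrays were not intermediate: Dpt medians were 6.55, 6.34, 6.40 and 6.48 in YAMC, bleo/Neo, mp53 and Ras and 7.60 in mp53/Ras. For Clec11a they were 6.73, 6.74, 6.55, 6.65 and 7.51 in the same order. Ccdc125, a coiled-coil protein gene (0.85), was likewise lower in Ras (6.52) than in mp53 (6.99) and YAMC (6.92), with mp53/Ras at 7.47.

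The remaining large members above had varied roles. Pimreg, which acts in mitosis, was higher by 0.90 and Fzr1, an activator of the anaphase-promoting complex, by 0.74. Rangrf, a release factor of the nuclear transport GTPase Ran, was higher by 0.90. Ap4s1, a subunit of the AP-4 coat (0.81), Snx5, an endosomal sorting nexin (0.77, with 3 other bright probe sets between 0.46 and 0.53), and Ptprn, a dense-core vesicle protein (0.75), followed. Sinhcaf, a subunit of SIN3 histone deacetylase complexes (0.79), and the retinol dehydrogenase gene Rdh5 (0.77) complete the 20 largest. The 15 smaller members, named here after their values were seen, were Adat2, Kti12, Snx24, Eef1e1, Mrpl50, Atp8b2, Anp32a, Tstd3, Prdx3, Caml, Srsf10, Ahsa1, Riox1, Naa50 and Psen2, from 0.73 for Adat2 to 0.35 for Psen2.

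**Figure D2:**
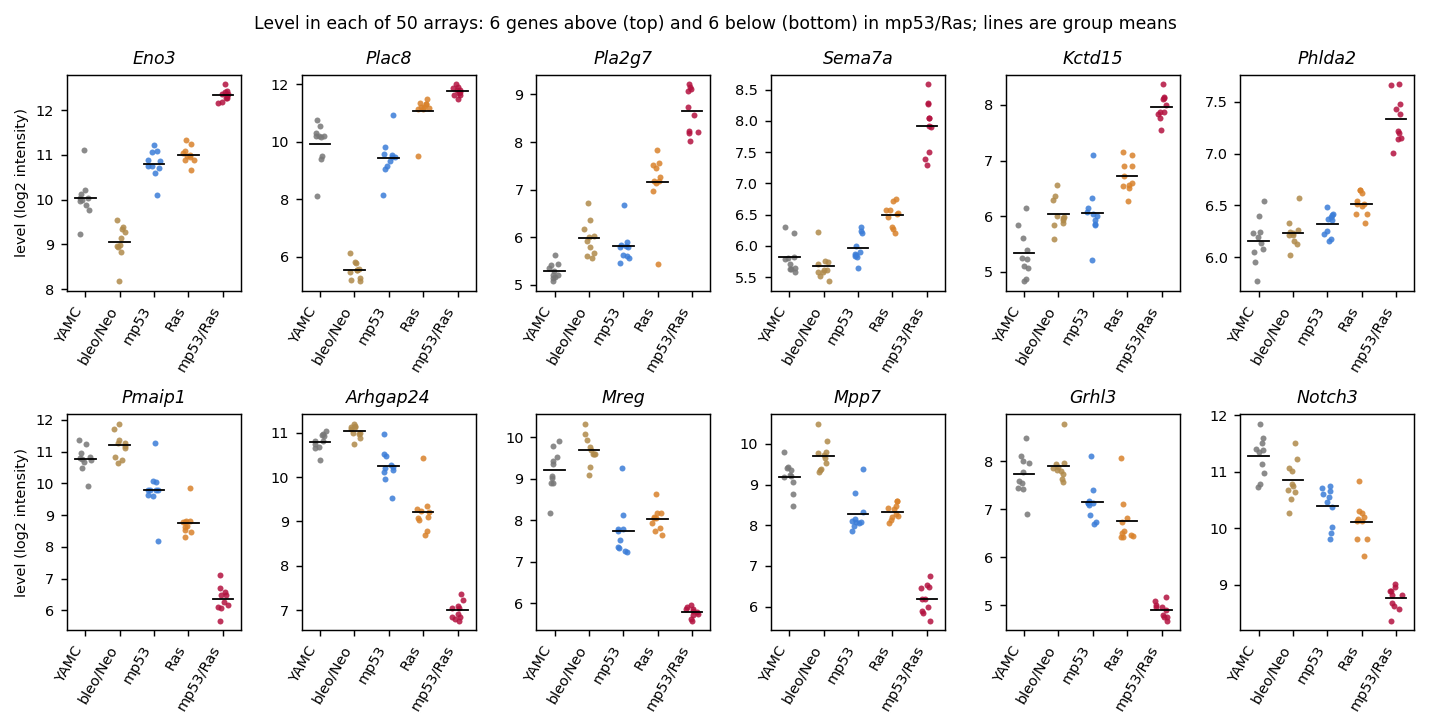
Each point is 1 array, the bar is the mean of the 10 arrays of a group, and the vertical axis is the log2 intensity of the named gene, on its own scale in every panel. The top row has 6 members above and the bottom row 6 members below. In each panel the 10 mp53/Ras arrays stand apart from the other 40, by as little as 0.0075 in Plac8 and as much as 1.32 in Arhgap24.

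The largest difference below was in Pmaip1, which encodes NOXA, a BH3-only protein that triggers cell death and a known target of p53. Its mp53/Ras arrays lay from 5.68 to 7.11 (median 6.37). The Ras arrays lay from 8.30 to 9.84 (8.73), the mp53 arrays from 8.20 to 11.28 (9.80), the YAMC arrays from 9.91 to 11.36 (10.78) and the bleo/Neo arrays from 10.64 to 11.88 (11.22). The difference was -3.77 ± 0.17, and the gap to the nearest array, of mp53, was 1.08. The medians of Ras and mp53 were each below those of both controls, and mp53/Ras differed from Ras alone by -2.40 ± 0.21.

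Arhgap24, a GTPase-activating protein that turns off Rac, ran from 6.76 to 7.36 (median 6.98) in mp53/Ras. Ras arrays ran from 8.69 to 10.42 (9.15), mp53 arrays from 9.52 to 10.96 (10.22), and YAMC and bleo/Neo arrays from 10.39 to 11.20. The difference was -3.32 ± 0.10 with the widest gap of all members, but another bright probe set of Arhgap24 differed by -0.20. The low level was thus seen with the brighter of its probe sets and not with the other.

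Mreg, melanoregulin, a protein of organelle transport, ranged from 5.59 to 5.95 (median 5.81) in mp53/Ras, and the lowest other array, of mp53, was at 7.25. Mpp7, a scaffold of epithelial polarity, ranged from 5.66 to 6.76 (6.18), below an mp53 array at 7.87, with other bright probe sets at -0.97 and -1.30. Grhl3, a transcription factor of epithelial barriers, ranged from 4.68 to 5.17 (4.93), below a Ras array at 6.42. The differences were -2.88 for Mreg, -2.68 for Mpp7 and -2.48 for Grhl3, and the gaps were above 1 in all 3. Every mp53/Ras array of Mreg and Grhl3 was under the filter level of 6.44, where background limits the fall.

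Tent5c, a poly(A) polymerase, was lower by 2.78 on average (difference -2.78 ± 0.18), with a second bright probe set at -0.94. Scn3b, a sodium channel subunit, differed by -2.59, and Cd55, a shield against complement, by -2.55, with other Cd55 probe sets at -2.51 and -2.31. Apol8 (-2.14), the stathmin gene Stmn4 (-2.12), the germ cell gene Tex15 (-2.12), the carboxylesterase gene Ces2f (-2.12), the adhesion molecule gene Mcam (-2.07) and Depdc7 (-2.03) followed. Rai2 (-1.97), the adenylyl cyclase gene Adcy1 (-1.96), the myosin chaperone gene Unc45b (-1.91) and the vesicle protein gene Svop (-1.85) were among the 20 largest as well. The populations nearest to mp53/Ras differed among them: by mean, mp53 was nearest for Mreg, Mpp7, Scn3b, Apol8, Tex15, Ces2f, Depdc7, Rai2, Unc45b and Svop, and Ras for Grhl3, Tent5c, Cd55, Stmn4, Mcam and Adcy1. Stmn4 had its highest values in bleo/Neo (median 10.68), with YAMC, mp53 and Ras at 7.97, 8.05 and 7.64 and mp53/Ras at 6.41. In Tent5c, Scn3b, Apol8, Tex15, Rai2, Adcy1 and Unc45b every mp53/Ras array was under the filter level of 6.44. The Ras arrays of Rai2, up to 5.55, were under it too, so that this separation lies where background limits the measurement. Rai2 medians were 4.90 in mp53, 5.87 in YAMC and 7.60 in bleo/Neo.

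Below these in size, and named after their values were seen, were Glis3, a zinc-finger transcription factor (-1.81), Espn, an actin-bundling protein (-1.79), the RNA-binding protein gene Celf5 (-1.76) and the glutathione transferase gene Gsta3 (-1.68). Smaller falls included the lysosomal mannosidase gene Man2b1 (-1.55, another bright probe set at -0.02) and the ceramide synthase gene Cers4 (-1.53, others at -0.76 and -1.86). Plekha7, an adherens junction protein, differed by -1.52, with other bright probe sets at -0.13 and -1.78. The smallest difference among members below was -0.33, in Cdkn1a. Of the 189 members below, 77 had at least 1 other bright probe set, 115 in all, of which 101 had the same sign, 41 showed under 0.4 of the change and 22 also did not overlap. Of the 35 above, 9 had 16 other bright probe sets, 15 with the same sign, 3 under 0.4 of the change and 1 without overlap.

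**Figure D3:**
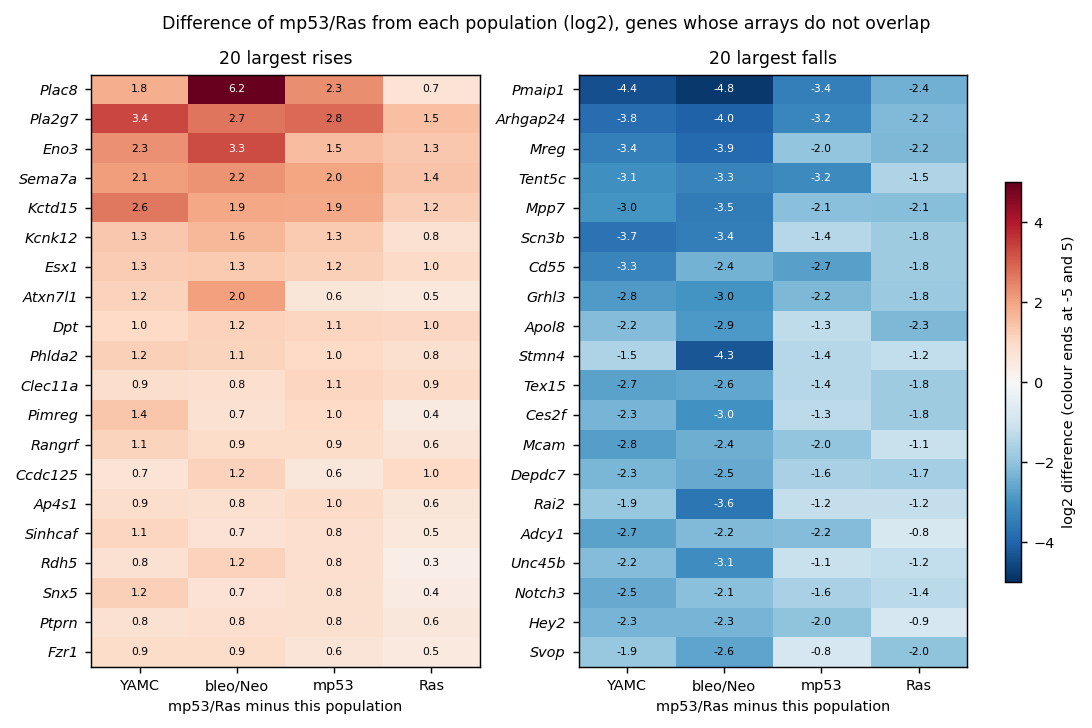
Rows are the 20 members with the largest rise (left) and the largest fall (right), and columns the population that mp53/Ras is compared with. Colours and numbers give the difference of the group means (log2), with red for higher in mp53/Ras and blue for lower, and the smallest differences are most often in the Ras column.

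Lists of related genes were counted next, each beside the background of 27.3% of all tested genes higher and 27.5% lower. Of 32 p53 target genes measured, 25 were lower in mp53/Ras cells than the mean of the others, 3 were higher and 4 did not pass, with a median difference of -0.46 beside 0.01 over all genes. Lower than each of the 4 other populations were 16 of the 32, beside 7.29% of all genes, and 1 was higher than each (4.48%). Members of the list whose arrays did not overlap were Pmaip1, Fas, Polk, Eda2r, Trp53inp1 and Cdkn1a, all 6 below (1.47% of all genes).

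Fas, a death receptor, ranged from 8.74 to 9.27 (median 8.88) in mp53/Ras, with medians of 10.07 in Ras, 9.88 in mp53, 10.39 in YAMC and 10.76 in bleo/Neo, and differed by -1.33 ± 0.10. Eda2r, a receptor of the TNF family, ranged from 9.77 to 10.20 (9.93), with medians of 10.51, 10.48, 10.90 and 11.22 in the same order, and differed by -0.84 ± 0.05. Polk, a polymerase that copies damaged DNA, ranged from 9.70 to 10.12 (9.93), with medians of 10.52, 10.68, 11.20 and 10.83, and differed by -0.86 ± 0.07, another bright probe set by -0.36. In all 3 the Ras and mp53 arrays overlapped each other, and their medians were below both control medians.

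Cdkn1a, the arrest protein p21, ranged from 13.32 to 13.48 (median 13.39) in mp53/Ras, with medians of 13.67 in Ras, 13.74 in mp53, 13.74 in YAMC and 13.78 in bleo/Neo. Its difference of -0.33 ± 0.03 was the smallest of the members, near the top of the intensity scale, where the highest value of the table is 14.26. A second Cdkn1a probe set gave -0.35 but its arrays overlapped. Trp53inp1, which promotes death and autophagy downstream of p53, ranged from 11.79 to 12.10 (11.89) and differed by -0.67 ± 0.04. For both genes the arrays of mp53 and YAMC overlapped.

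Other p53 targets called lower included Perp, a desmosome protein (-2.20 ± 0.23, adjusted p = 3.449e-11), and Rprm, which blocks the cell cycle (-1.49 ± 0.15, adjusted p = 9.422e-12). Perp arrays of mp53 and mp53/Ras overlapped, with medians of 8.48 and 8.62 and means of 8.97 and 8.55. The mp53 arrays of Perp reached 11.30, and the difference of the means was -0.42 ± 0.30 (adjusted p = 0.2456, limma). By median, Rprm was lower in mp53/Ras (8.66) than in mp53 (9.83) and Ras (10.15). Mdm2, the p53 inhibitor that p53 itself induces, fell by 0.52, Zmat3 fell by 0.59, and Apaf1, the scaffold of caspase activation, fell by 0.68, each lower than in each of the 4. Higher were Plk3 (0.30), Sfn (0.25) and Plk2 (0.18). Btg2 (-0.43, adjusted p = 0.05481), Sesn2, Phlda3 and Bbc3, which encodes PUMA, did not pass in the limma fit.

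**Figure D4:**
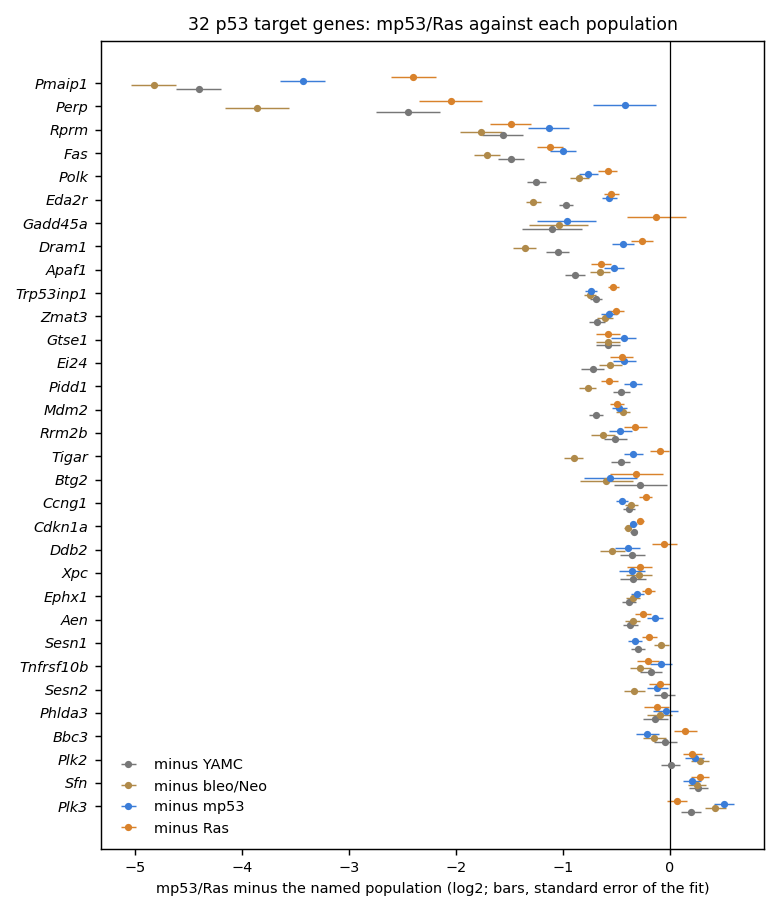
Points are the difference of mp53/Ras from the population named by the colour (log2), with the standard error of the fit as the bar, for the 32 p53 target genes measured, ordered by their difference from the mean of the 4. Most points lie left of 0 and the Pmaip1 points are the farthest left, while Plk3, Sfn and Plk2 at the bottom lie right of 0 or on it.

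Promoter windows were available for 150 of the 189 members below and 31 of the 35 above, as the 250 bases before the first RefSeq start listed for each gene (assembly GRCm38.p6). Windows of 4 p53 target members are shown because their genes fell together, with matches to the motifs searched in capitals: the p53 half-site in Cdkn1a and Polk, the AP-1 site TGANTCA and the E-box CACGTG in Fas, and TATAAA in Eda2r. Only windows with a match were written out, and none is shown for the other p53 target members, Pmaip1 and Trp53inp1. The Cdkn1a window belongs to the upstream of its 2 listed starts (chr17:29090729-29090978, plus strand). Fas lies at chr19:34290409-34290658 on the plus strand, Polk, 1 of its 2 listed starts, at chr13:96519188-96519437 on the minus strand and Eda2r at chrX:97377210-97377459 on the minus strand, and each is written 5′ to 3′ along its gene.
Cdkn1a: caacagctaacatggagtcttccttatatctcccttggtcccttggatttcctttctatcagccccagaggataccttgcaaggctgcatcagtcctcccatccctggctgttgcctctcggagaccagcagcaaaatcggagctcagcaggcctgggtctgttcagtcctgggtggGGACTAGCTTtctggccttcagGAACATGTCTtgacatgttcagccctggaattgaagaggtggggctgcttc
Fas: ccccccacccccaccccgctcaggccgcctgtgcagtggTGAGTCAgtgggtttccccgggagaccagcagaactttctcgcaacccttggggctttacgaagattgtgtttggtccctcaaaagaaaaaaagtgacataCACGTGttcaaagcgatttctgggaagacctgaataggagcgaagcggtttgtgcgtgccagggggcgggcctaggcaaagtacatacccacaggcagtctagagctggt
Polk: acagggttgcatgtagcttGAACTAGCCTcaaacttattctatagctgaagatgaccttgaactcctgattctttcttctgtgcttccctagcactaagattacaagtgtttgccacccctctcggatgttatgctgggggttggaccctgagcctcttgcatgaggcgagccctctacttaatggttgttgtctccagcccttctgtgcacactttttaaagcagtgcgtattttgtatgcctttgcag
Eda2r: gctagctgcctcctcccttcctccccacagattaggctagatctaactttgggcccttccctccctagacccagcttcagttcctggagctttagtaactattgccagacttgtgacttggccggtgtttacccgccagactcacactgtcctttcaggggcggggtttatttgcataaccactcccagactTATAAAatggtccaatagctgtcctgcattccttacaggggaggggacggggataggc

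Matches were counted on both strands in the windows of the members and of all 10330 tested genes with a window, and no test was made of the shares. The p53 half-site was found in 6.0% of windows of members below, 6.45% of those above and 6.13% of all. The AP-1 site TGANTCA was found in 5.33%, 6.45% and 4.5%, the E-box CACGTG in 9.33%, 6.45% and 8.36%, and the ETS site CCGGAAGT in 4.0%, 6.45% and 5.58%. The CRE TGACGTCA, which does not contain the AP-1 letters, was found in 2.67%, 0% and 2.6%, and TATAAA in 2.67% (4 of 150), 9.68% (3 of 31) and 6.87%. A match is a description of letters in these 250 bases, and p53 sites often lie outside such a window.

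Genes of the cell death machinery, a list that shares Pmaip1, Fas and others with the p53 targets, were split. Of 28 BCL2 family, death receptor and caspase genes, 11 were lower, 9 higher and 8 did not pass. Members below were 5 of the 28, beside 1.47% of all genes: Pmaip1, Fas, Dapk1, Dffb and Mcl1. Dapk1, a kinase that promotes death, ranged from 7.36 to 8.05 in mp53/Ras against 8.47 to 10.53 elsewhere (-1.59 ± 0.11), and a second probe set (-2.17) did not overlap either. Dffb, the nuclease that cuts DNA in dying cells, ranged from 6.71 to 7.45 against 7.99 to 9.30 (-1.33 ± 0.08, a second probe set -0.58). Mcl1, which protects from death, was lower by a small amount (-0.46 ± 0.06), and of its 5 other bright probe sets 3 were lower (-0.31 to -0.56) and 2 were at 0.05 and 0.16. Higher than each of the 4 populations were Bcl2, a protector (0.81 ± 0.10, adjusted p = 9.061e-10), and the TNF receptor gene Tnfrsf1b (0.82 ± 0.09, adjusted p = 2.574e-10), while the killer gene Bcl2l11 fell by 0.58.

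Among regulators of the cell cycle, the retinoblastoma gene Rb1 stood apart. Its mp53/Ras arrays lay from 8.72 to 9.34 (median 9.09), Ras from 9.93 to 10.72 (10.20), mp53 from 10.18 to 11.19 (10.35), bleo/Neo from 10.61 to 11.15 (10.80) and YAMC from 10.58 to 11.16 (10.96), a difference of -1.55 ± 0.07. Its relative Rbl1 (p107) ranged from 8.80 to 9.20 against 9.22 or more elsewhere (-0.54 ± 0.06), but its other bright probe set gave -0.18, which did not pass when it stood for the gene (adjusted p = 0.2139, limma). Of 12 inhibitors and D cyclins 5 were lower, 2 higher and 5 did not pass, among the lower Cdkn2c (-0.45), and the higher were Ccnd1 (0.65) and Ccnd3 (0.38). Against Ras alone Cdkn2c and Ccnd1 did not pass (-0.31, adjusted p = 0.1018, and -0.03, adjusted p = 0.8779, limma). In 34 cell cycle genes 14 were lower and 11 higher, 9 did not pass, and the list held no member. Mcm7 (-0.61) and Mcm5 (-0.55), of the replication helicase, and Rrm1 (-0.58), of ribonucleotide reductase, were among the falls. Against Ras alone Mcm7 and Mcm5 passed and Rrm1 did not (-0.24, adjusted p = 0.1251, limma). The mitotic kinase gene Aurka (0.65) and the phosphatase gene Cdc25b (0.53) were among the rises. With the most variable probe set for each gene, 9 in place of 14 were lower and Rrm1 did not pass (-0.22, adjusted p = 0.2402).

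Genes that answer to ERK were mostly higher, without members of the non-overlapping set. Of 24 ERK feedback and ERK-induced genes 18 rose, 3 fell and 3 did not pass, with a median of 0.57. Higher than each of the 4 were 3 of the 24, beside 4.48% of all genes. Myc, a growth transcription factor, ranged from 9.34 to 10.04 in mp53/Ras, and its highest other array, of Ras, was at 9.42 (1.16 ± 0.13, adjusted p = 1.438e-10). The phosphatase genes Dusp5 (0.90) and Dusp6 (1.03), which inactivate ERK, and Fosl1, an AP-1 subunit (1.06), also rose. Dusp6 and Fosl1 did not pass against Ras alone (0.11, adjusted p = 0.8204, and -0.14, adjusted p = 0.7214, limma). Fos (-0.52), Jun (-0.29) and Spry1 (-0.34) fell. Of 12 EGF family genes 6 rose and 3 fell, and Egfr, the receptor, was a member below, from 8.82 to 9.51 in mp53/Ras against 9.69 or more elsewhere (-0.94 ± 0.09). Of 4 other bright Egfr probe sets, 2 were at -0.67 and -0.50 and 2 at -0.03 and -0.08. The neuregulin gene Nrg1 (-1.22) and the receptor gene Erbb3 (-0.95) fell, and Errfi1 and Lrig1, inhibitors of EGF receptors, rose by 1.10 and 0.96. Against Ras alone Nrg1 passed (-0.38, adjusted p = 0.002314, limma), while Erbb3 (-0.29), Errfi1 (0.26) and Lrig1 (0.20) did not.

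Notch and Wnt genes held 4 members among 37 tested, all below, beside 1.47% of all tested genes. Notch3, a receptor of smooth muscle and progenitor cells, ranged from 8.36 to 9.02 (median 8.82) in mp53/Ras, with Ras from 9.50 to 10.84 (10.15), mp53 from 9.81 to 10.74 (10.50), bleo/Neo from 10.27 to 11.51 (10.77) and YAMC from 10.72 to 11.85 (11.36). It differed by -1.89 ± 0.11, and a second probe set, at -1.85, also did not overlap. Hey2, a repressor that Notch induces, ranged from 4.28 to 4.59 against 5.01 or more elsewhere (-1.88 ± 0.10). Its Ras arrays, up to 5.84, were also under the filter level of 6.44, so that its separation from Ras lies where background limits the measurement. The ligand gene Wnt9a ranged from 8.74 to 9.29 against 9.59 or more (-1.33 ± 0.08) and Dixdc1, a Wnt pathway scaffold, from 7.33 to 7.98 against 8.31 or more (-1.18 ± 0.10). Of the 37 genes of both pathways 15 fell, 8 rose and 14 did not pass. Lower than each of the 4 were 8 of the 37, beside 7.29% of all genes, among them Sfrp2 (-2.82), Wnt4 (-1.09) and Notch1 (-0.68). The mp53/Ras arrays of Sfrp2 ran from 5.66 to 6.61, near or under the filter level of 6.44, where background limits the fall. Rises included the Wnt antagonist gene Sfrp1 (1.02 ± 0.09), Nrarp (0.67) and Hes1 (0.30), a Notch target that moved against Hey2.

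Genes of glycolysis and hypoxia and of cholesterol synthesis were mostly higher than the mean of the others, and those of lipid transport were split. Of 28 glycolysis and hypoxia genes 19 rose, 2 fell and 7 did not pass, with a median of 0.42. Higher than each of the 4 populations were 4 of the 28, beside 4.48% of all genes, and 2 were lower than each (7.29%). Beside Eno3, the rises were largest in Bnip3, a mitophagy gene induced by hypoxia (1.57), the lactate exporter gene Slc16a3 (1.55), the oxygen sensor gene Egln3 (1.23) and Pdk1, which keeps pyruvate from mitochondria (1.03). Against Ras alone Slc16a3 passed (1.24, adjusted p = 7.764e-07, limma) and Bnip3 did not (0.32, adjusted p = 0.1689, limma). Slc2a1, the glucose transporter, rose by 0.84 and Ldha by 0.42. Ldhb, the lactate dehydrogenase chain of oxidative tissues, was a member below, from 9.29 to 9.79 in mp53/Ras with medians of 10.93 in Ras, 10.30 in mp53, 11.46 in YAMC and 11.51 in bleo/Neo. It differed by -1.59 ± 0.14, and its 3 other probe sets, at -1.76 to -2.12, did not overlap either. Eno2, the neuronal enolase, fell by 1.05, so that Eno3 and Eno2, and likewise Ldha and Ldhb, moved in opposite directions. Of 18 cholesterol synthesis genes 14 rose and 4 did not pass, and the largest rise was 0.74 (Sc5d). None of the 18 was called higher than each of the 4 populations, and Sc5d did not pass against Ras alone (0.14, adjusted p = 0.4721, limma). Among 12 genes of lipid transport 5 rose and 3 fell: Pltp, the phospholipid transfer protein, was a member below (10.73 to 11.52 against 11.59 or more, -1.35 ± 0.09), and Abca1, which exports cholesterol, fell by 2.34 and Lpl by 0.83.

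Of 37 extracellular matrix genes 27 fell, 6 rose and 4 did not pass, with a median of -0.36 and no member. The falls were led by the basement membrane collagen genes Col4a4 (-1.99 ± 0.24) and Col4a5 (-1.12 ± 0.10) and by Dcn, the proteoglycan decorin (-1.13 ± 0.15), and Col4a4 was as low in Ras (median 5.12) as in mp53/Ras (5.24). Against Ras alone Col4a5 passed (-0.40, adjusted p = 0.0206, limma) and Dcn did not (-0.16, adjusted p = 0.5991, limma). Bgn (1.06) and Col1a2 (0.62) rose, both with a bleo/Neo median of 8.59 against 12.01 or more in every other group. Without bleo/Neo in the mean, Bgn did not pass (0.05) and Col1a2 turned to -0.41 (adjusted p = 0.003214, limma). Fibroblast and smooth muscle markers overlap this list and fell in 6 of 11 cases, 2 rising. Their summed linear intensity ranged from 36464 to 47325 in mp53/Ras arrays, 28238 to 62332 in Ras, 34770 to 88432 in mp53, 34787 to 55542 in bleo/Neo and 62553 to 85633 in YAMC, and its part in the matrix falls was not tested. Among 19 matrix proteases and inhibitors 7 rose and 7 fell, and the plasminogen activator gene Plat was a member below (10.15 to 10.43 against 10.60 or more, -0.99 ± 0.10).

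Secreted signals mostly rose. Of 24 chemokine and cytokine genes 14 rose and 4 fell, led by the chemokine genes Cxcl15 (2.29 ± 0.28) and Ccl9 (2.14 ± 0.11) and by Il6 (1.70 ± 0.14), and without bleo/Neo in the mean 9 rose. Il6 did not pass against Ras alone (0.27, adjusted p = 0.2784, limma). Only 6 of its other arrays lay above the filter level, so Il6 needed its mp53/Ras arrays to pass the filter. Its YAMC, bleo/Neo and mp53 arrays reached at most 6.34, under that level, so that background bounds the size of its rise. Ccl9 arrays ran from 8.05 to 8.58 in mp53/Ras and reached 8.27 in Ras. In 27 interferon response and antigen presentation genes 14 fell, 1 rose and 12 did not pass. Tap1, which loads peptides for antigen presentation, was a member below, from 10.16 to 10.61 against 10.74 or more (-0.81 ± 0.07). The class II gene H2-Eb1 fell by 1.38, and it too was lower than each of the 4. Of 28 TGF-beta and BMP genes 12 fell and 6 rose, with the largest falls in Id4 (-2.93 ± 0.22) and Id2 (-1.80 ± 0.20), inhibitors of differentiation factors. Of 26 genes of the unfolded protein and amino acid response 8 fell, 2 rose and 16 did not pass, with Atf3 at -0.82 and Xbp1 at 0.48. Atf3 did not pass against Ras alone (-0.42, adjusted p = 0.1273, limma).

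The lists of epithelial and mesenchymal genes moved in both directions and held no member, although Grhl3, Mpp7 and Plekha7, members below, act in epithelia and are in neither list. Of 27 genes of epithelial junctions and keratins 10 fell and 5 rose, among the falls Krt7 (-1.37), Cldn15 (-1.25) and Krt14 (-1.0), and among the rises Krt18 (1.26) and Krt8 (0.64). Krt7 and Cldn15 were highest in bleo/Neo, at medians of 10.95 and 10.74, against 7.95 and 7.18 in mp53/Ras. Of 20 mesenchymal transition genes 9 rose and 3 fell, led by Hmga2, a chromatin protein of embryonic cells (3.11 ± 0.30), and S100a4 (2.14 ± 0.20), and neither passed against Ras alone (adjusted p = 0.5798 and 0.1796, limma). Of 14 colon epithelial markers 4 rose and 2 fell, of 5 endothelial markers 2 rose and 2 fell, and of 6 immune markers 2 rose and 1 fell. Of 13 squamous and neural markers, 3 rose and 3 fell. Summed intensities of the immune markers ran from 1506 to 1900 in mp53/Ras arrays and from 1279 to 3681 in the others, those of the endothelial markers from 1189 to 1447 and from 1015 to 2162. The part of other cell types in the results was not tested.

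**Figure D5:**
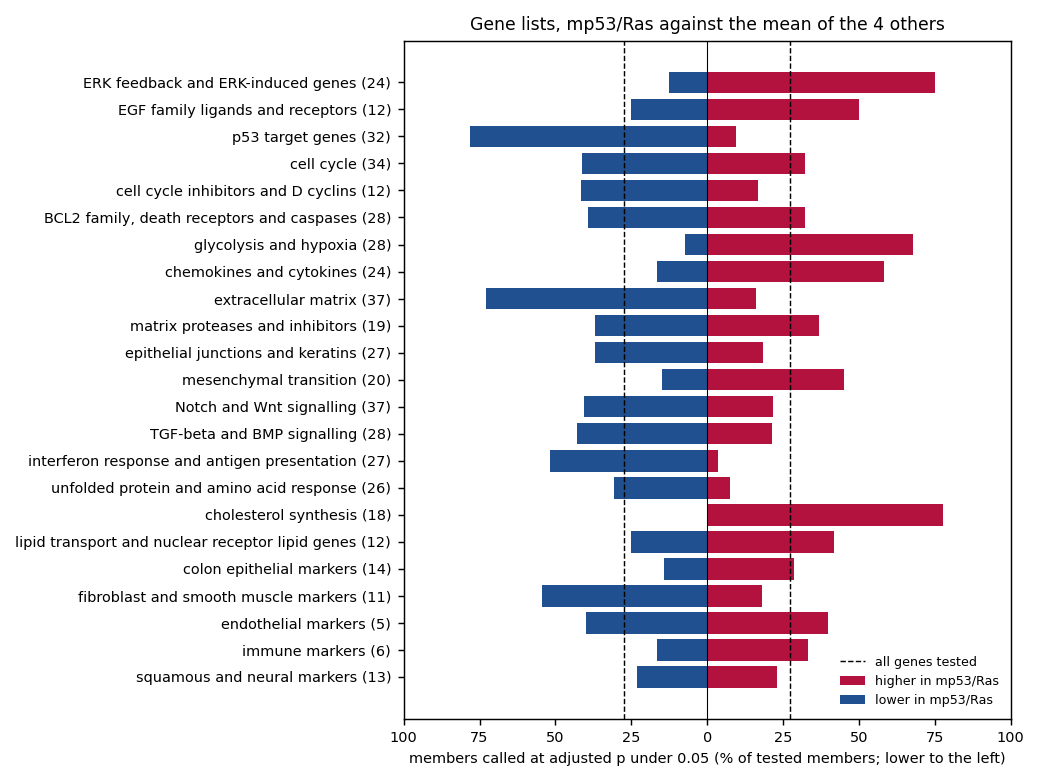
Bars give the share of each list's tested genes that was called at an adjusted p under 0.05, to the right for higher and to the left for lower in mp53/Ras, with the number tested in brackets. The dashed lines mark the shares over all tested genes, 27.3% and 27.5%. The p53 target and extracellular matrix lists extend farthest to the left, and the cholesterol synthesis, ERK and glycolysis lists farthest to the right.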

How the data were processed

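Per the labels, polysomal RNA of 50 samples, 10 in each of 5 groups, was hybridised to Affymetrix mouse arrays. The authors deposited 1 table of linear intensity values per probe set and array. The submitters' processing notes name RMA and give no version. Array medians ran from 86.4 to 86.7. Of 45101 probe sets, 64 were blank.

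Intensities were taken to log2 without an offset. Of the remaining probe sets, 34945 had exactly 1 symbol in the platform annotation (34741 matched to the RefSeq gene table of GRCm38.p6 by gene number), 932 several and 9160 none. For each of 18193 genes the probe set of highest mean was taken and tested where at least 10 arrays exceeded the table's median of 6.44, which also defines a bright probe set. All 50 arrays entered 1 limma fit (version 3.58.1, R 4.3.3) with a coefficient per group and an intensity trend, and p-values were adjusted by Benjamini-Hochberg over the genes tested in each contrast, called under 0.05. The fit was tested on simulated data. No 2 arrays held identical values (highest correlation 0.9985), and detection calls, scan dates and the transgenes were not analysed here.

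Members, gene lists and tests were chosen with earlier results of these data known. Named genes are the 20 largest rises and falls and 5 widest gaps in each direction among members, members in a list, up to 4 called genes with the largest difference per list, and the genes beside a gap of 0, passing over predicted names. A few more list genes and members were named after their values were seen. Alternatives changed the filter, the probe set rule, the scaling, the trend, array weights, the replicate block, the reference groups and the arrays used.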

Additional observations from a re-analysis of the deposited data

Results flagged for a closer look

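In 65 of 295 groups of 10 arrays examined for the named members, the highest or lowest array stood apart from the other 9 by more than Dixon's critical value, which chance exceeds in about 5% of groups. Values are log2 intensities. In the array labelled Ras 10, Pmaip1 (9.84), Rb1 (10.72), Rbl1 (9.78), Hey2 (5.84), Arhgap24 (10.42), Tent5c (9.39), Grhl3 (8.08) and Adcy1 (7.63) were the highest of their group. In the same array Plac8 (9.52), Pla2g7 (5.43), Pimreg (9.17), Sinhcaf (8.39), Snx5 (10.23), Ptprn (7.17), Svop (7.33) and Mrpl50 (8.66) were the lowest. In the array labelled mp53 8, Rb1 (11.19), Dffb (8.69), Dixdc1 (9.55), Mreg (9.26), Scn3b (9.41), Grhl3 (8.12), Tex15 (9.61), Depdc7 (11.10), Rai2 (6.53) and Unc45b (8.05) were the highest, and Kcnk12 (5.14) and Fzr1 (7.58) the lowest.

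In the array labelled bleo/Neo 3, Dapk1 (10.37), Hey2 (7.58), Wnt9a (11.45), Dixdc1 (9.62), Grhl3 (8.78), Apol8 (9.36) and Unc45b (9.23) were the highest, and Eno3 (8.18) and Sinhcaf (8.09) the lowest. In the array labelled YAMC 2, Eno3 (11.10) was the highest, and Plac8 (8.11), Scn3b (7.41), Cd55 (8.25), Apol8 (6.43) and Ces2f (7.14) were the lowest. In the array labelled mp53 10, Pla2g7 (6.67) and Rdh5 (6.78) were the highest, and Ccdc125 (6.34), Tent5c (7.28) and Mcam (10.28) the lowest. Of the arrays labelled bleo/Neo 1, bleo/Neo 4 and mp53 5, the first was lowest for Fas (9.44) and Mcam (10.69) and highest for Sema7a (6.23), the second was lowest for Eda2r (11.02) and the third for Ap4s1 (7.14). The arrays labelled Ras 4, Ras 5 and YAMC 9 were the highest for Ap4s1 (8.44), Clec11a (6.99) and Rbl1 (10.23).

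Within mp53/Ras itself, the array labelled mp53/Ras 4 was the lowest for Egfr (8.82), Mcl1 (11.06), Esx1 (6.46) and Tent5c (5.24) and the highest for Atxn7l1 (9.07) and Ap4s1 (9.28). The arrays labelled mp53/Ras 1, 5 and 9 stood apart for Scn3b (5.18), Ccdc125 (8.01) and Hey2 (4.59). Among probe sets without exactly 1 gene symbol, which the gene comparisons do not use, the mp53/Ras arrays lay all above the 40 others for 15 and all below for 32.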

How the results depend on the processing

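The 7059 calls ranged from 6355 (without YAMC in the mean) to 9331 (no filter on dim genes) over the alternatives run. Genes with all mp53/Ras arrays below numbered 172 to 219, and those above 32 to 54, the 54 being without the filter. With log2 of the value plus 32, 163 genes in place of 268 were at least 2-fold lower, and with array weights 1020 in place of 577 were called higher than each of the 4. Centring each array on its median moved the share of calls that were higher from 49.8% to 55.8% and the median of all genes from 0.01 to 0.04, with 33 of the 35 and 171 of the 189 members kept. Without bleo/Neo in the mean, Col1a2 reversed to -0.41 and Gpm6a from -0.63 to 0.55 (adjusted p = 0.006295), the cause not tested. Leaving out each mp53/Ras array in turn gave 6674 to 6906 calls, 34 to 45 genes above and 190 to 210 below. Each time 33 of the 35 members above were among them, since Kcnk12 and Esx1 pass the filter only with all 10 mp53/Ras arrays. The deviations of same-numbered arrays correlated above 0.1 in 67 of 100 pairs (-0.52 to 0.75), not in every pair, so the numbers were not taken as pairing the samples. That 31 of 50 arrays matched their own number best is a hint of a shared replicate effect from the data, not from the design. A fit with the replicate block gave 7548 calls, with 748 higher and 1117 lower than each of the 4. The signal over background limits falls in the 29 members below that have no bright mp53/Ras array. Of the immune marker rises, Csf1r did not pass under several alternatives, and Cd14 did not pass without bleo/Neo in the mean (0.29, adjusted p = 0.1498, limma). H2-Aa, Actg2 and Kdr did not pass without YAMC in the mean. Trend, weights and block leave the overlap of arrays as it was.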
